A study of Rattus norvegicus with 10 samples.

Results

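The genes described here encode the subunits of the rat proteasome, its assembly chaperones and its activators. They were taken by symbol from the deposited gene counts as every Psm gene of the families a to g with a number, without the 3 immunoproteasome genes Psmb8, Psmb9 and Psmb10, which gave 44 of the 32545 genes in the table. By the textbook role of each gene they fall into 8 genes of the alpha ring (Psma1 to Psma8), 8 of the beta ring (Psmb1 to Psmb7 and Psmb11), 9 of the base of the regulatory particle (Psmc1 to Psmc6, Psmd1, Psmd2 and Psmd4), 8 of its lid (Psmd3, Psmd6, Psmd7, Psmd8, Psmd11, Psmd12, Psmd13 and Psmd14), 7 assembly chaperones (Psmd5, Psmd9, Psmd10 and Psmg1 to Psmg4) and 4 activators or regulators of the core (Psme1, Psme2, Psme4 and Psmf1). Psme3 was not analysed here.

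RNA of the CA1 region, microdissected from rat hippocampal slices, was sequenced after SKF, an agonist of dopamine D1/D5 receptors, with or without oligomers of amyloid-β(1-42) (Aβ) at 200 nM, and with or without CSP-TTK21 at 0.36 ug/ml. TTK21 is an activator of the histone acetyltransferases CBP and p300, and CSP is the glucose-derived carbon nanosphere that carries it. The 5 groups, each of 2 libraries, were CSP-TTK21 alone, SKF, SKF+Aβ, and SKF+Aβ joined by CSP (SKF+Aβ+CSP) or by the loaded sphere (SKF+Aβ+CSP-TTK21). A library was made from 2 slices of 2 biological samples. The rats were male Wistar, with an age of 5 to 7 weeks stated for the recordings. The slices had 30 min of basal stimulation and were collected 1 h after treatment. The slices of 4 groups shared SKF, and those of the fifth received CSP-TTK21 without SKF or Aβ, so that CSP-TTK21 alone and SKF differ by both agents. Untreated slices were not analysed here, and a bulk library cannot tell a change in RNA per cell from a change in the cells present.

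The 26S proteasome degrades proteins marked with ubiquitin chains. Its barrel-shaped core is built of alpha rings, which gate the entrance, around beta rings, which hold the proteolytic sites, and the regulatory particle binds the ubiquitin chain, removes it and unfolds the substrate with a ring of ATPases. The subunits are needed in equal numbers in the finished particle, and in neurons the proteasome takes part in the protein turnover that synaptic plasticity needs.

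The libraries held 6753742 to 8473407 counts each, and 41 of the 44 genes were tested among the 15032 genes that passed a filter on low counts. The other 3 were near the floor: Psma8, a subunit known from the testis, had 0 to 2 counts per library, Psmb11, a subunit known from the thymus, had 1 to 6, and Psme1, a subunit of the PA28 cap, had 0 to 2, where 3 counts correspond to 0.354 to 0.444 CPM, the counts scaled to a common library size. Psme1 is known to be widely expressed, and the annotation behind the counts is not given in the sources used here, so its counts near 0 cannot be read as absence of its RNA. The 41 tested genes together took between 0.290% and 0.323% of all counts in every library. Of the markers of CA1 neurons, Wfs1 measured 98.1 to 372 CPM, Fibcd1 was at 0 in every library and Pou3f1 matched no row, and 3 dentate granule cell markers summed to 197 to 300.3 CPM. SKF replicate 1 stood apart in its share of mitochondrial counts, 3.58% against 5.52% in SKF replicate 2 and 5.88% to 7.71% in the remaining 8.

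The start regions of 7 genes on which the results turn are shown for context, the 100 bases before the annotated start in RefSeq on GRCr8. Psme4 is shown because it passed the test, Psma2 and Psma3 for the alpha ring, Psmb5 and Psmb6 for the catalytic beta subunits, and Psmc6 and Psmd3 for the base and the lid. They lie at chr14:108706543-108706642 on the plus strand, chr17:55260442-55260541 on the minus strand, chr6:95219649-95219748 on the plus strand, chr15:32047380-32047479 on the minus strand, and chr10:55737788-55737887, chr15:21022214-21022313 and chr10:84139838-84139937 on the plus strand, each printed on the strand of its gene. Capitals mark TGACNNNGC, the core of the antioxidant response element known to be bound by Nfe2l1 and Nfe2l2, and CCAAT, known to be bound by NF-Y, on either strand. The windows of Psmc6 and Psmd3 held neither.
Psme4: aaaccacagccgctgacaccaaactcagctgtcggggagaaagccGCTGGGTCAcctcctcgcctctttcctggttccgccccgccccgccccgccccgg
Psma2: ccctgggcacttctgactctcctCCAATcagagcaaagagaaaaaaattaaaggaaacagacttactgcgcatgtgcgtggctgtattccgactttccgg
Psma3: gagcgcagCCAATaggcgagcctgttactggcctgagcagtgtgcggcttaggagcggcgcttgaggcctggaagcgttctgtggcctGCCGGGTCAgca
Psmb5: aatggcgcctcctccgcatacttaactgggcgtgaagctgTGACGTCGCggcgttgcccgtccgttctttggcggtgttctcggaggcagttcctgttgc
Psmb6: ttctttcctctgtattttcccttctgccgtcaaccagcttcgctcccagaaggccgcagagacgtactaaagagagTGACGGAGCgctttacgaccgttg
Psmc6: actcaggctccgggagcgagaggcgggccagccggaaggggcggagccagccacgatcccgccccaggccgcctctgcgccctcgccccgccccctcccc
Psmd3: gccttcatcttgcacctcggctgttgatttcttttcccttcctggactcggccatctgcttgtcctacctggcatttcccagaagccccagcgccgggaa

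Promoters of 39 of the 44 genes were matched, and those of Psma7, Psmb11, Psmd6, Psmd12 and Psmd14 were not. In the 250 bases before the start, TGACNNNGC was found on either strand in 7 of the 39 (17.9%), against 10.1% of the 33469 promoters in the table. Those 7 were Psma3, Psmb2, Psmb5, Psmb6, Psmd1, Psmd9 and Psme4. CCAAT was found in 18 of 39 (46.2%), against 34.0% of all promoters, with 5 of 6 alpha ring, 4 of 7 beta ring and 5 of 14 regulatory particle genes among those tested. The genome build of the deposited counts is not given consistently in the sources used here, so these positions belong to the RefSeq table alone.

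Against SKF, 1 of the 41 tested genes, Psme4, rose in SKF+Aβ and 0 fell at an adjusted p under 0.05 (edgeR quasi-likelihood test, Benjamini-Hochberg over all genes, n = 2 libraries a group), where 2.08% of all tested genes were called. Psme4 encodes PA200, an activator that caps the core in place of the regulatory particle and is known for the degradation of acetylated histones. Its level was 119 and 116 CPM in the SKF libraries, 232 and 189.6 CPM in SKF+Aβ, 170.0 and 218 CPM in SKF+Aβ+CSP, 199 and 154 CPM in SKF+Aβ+CSP-TTK21, and 143 and 175 CPM in CSP-TTK21 alone. Both SKF libraries lay below every one of the other 8, and the other 4 groups overlapped each other, except that both CSP-TTK21 alone libraries were below both SKF+Aβ libraries. The mean rose from 117 ± 2.22 to 211 ± 29.7 CPM (SD, n = 2), a log2 fold change of 0.85 (SE 0.17, adjusted p = 0.0376).

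The Psme4 call was held at 11 of 18 alternative settings, with a log2 fold change between 0.68 and 0.96 and adjusted p between 4.53e-05 and 0.170 (edgeR, limma or DESeq2). It was lost at an adjusted p of 0.122 without SKF replicate 1, 0.0718 without SKF replicate 2, 0.170 without SKF+Aβ replicate 1 and 0.0595 without SKF+Aβ replicate 2. It was also lost without either SKF+Aβ+CSP library, at 0.0598 and 0.0604, and at 0.0698 where only the compared libraries were fitted. In those 6 fits with a library left out, 0.00644% to 1.11% of all genes were called, against 1.16% to 1.92% in the 4 that held the call. Oligodendrocyte markers were lower in the same comparison: the summed level of 5 markers (none at 0) was 15372 to 22865 CPM in SKF and 10408 to 14796 CPM in SKF+Aβ. That of 3 oligodendrocyte precursor markers (none at 0) was 199 to 278 CPM in SKF and 171 to 179 CPM in SKF+Aβ, and that of 4 choroid plexus markers 2.35 to 3.74 CPM and 4.32 to 4.33 CPM. The part of these cells in the Psme4 difference was not tested. The neuron markers (5 genes, none at 0) overlapped, at 6446 to 6914 CPM and 6154 to 7794 CPM.

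**Figure D1:**
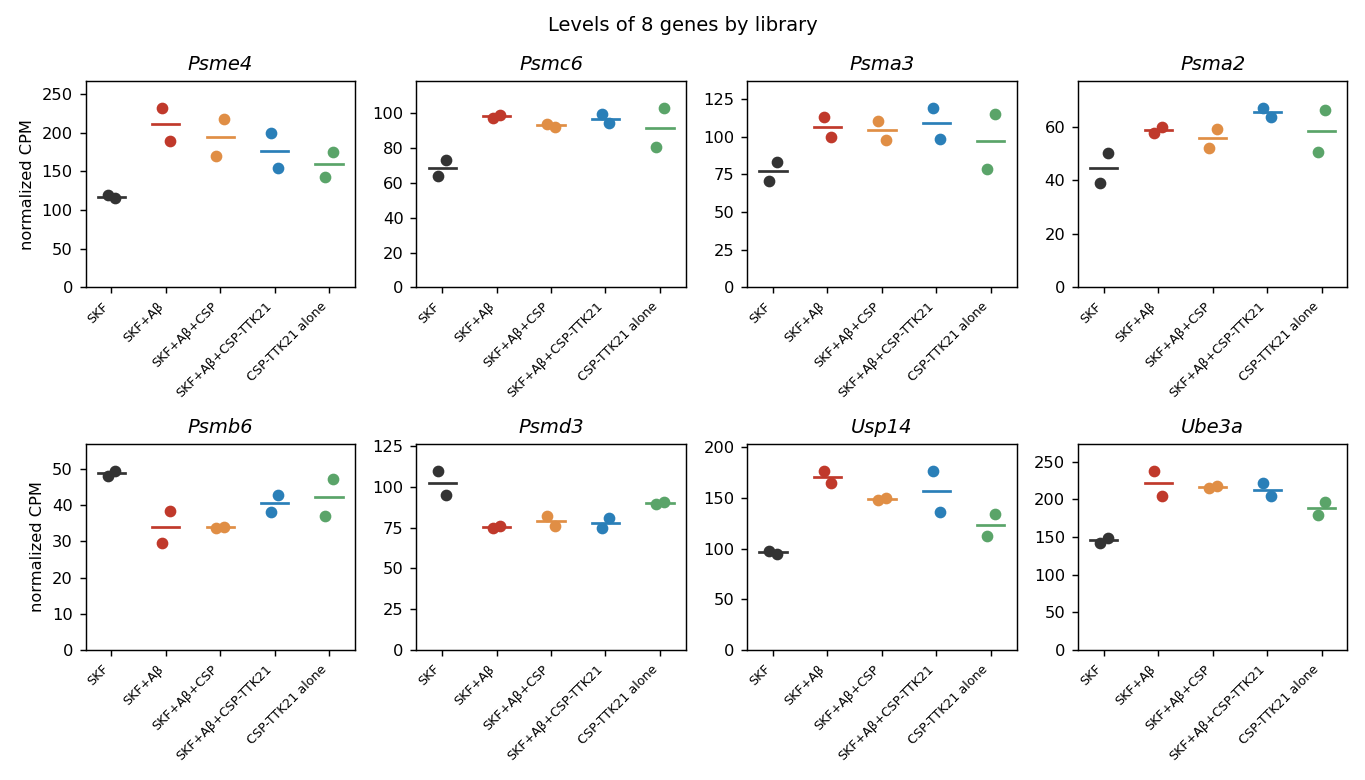
Normalized CPM (vertical axis, from 0) of 6 proteasome genes and of Usp14 and Ube3a in the 2 libraries of each of the 5 groups (horizontal axis). Points are libraries and lines are group means. Both SKF points of Psme4, at 119 and 116 CPM, sit below all others, while the 2 SKF points of Psmb6 and of Psmd3 sit above all others.

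No other gene of the list passed in edgeR in this comparison. At an unadjusted p under 0.05 there were 11 of 41, 7 higher and 4 lower, where 22.8% of all genes reached it, and none passed with the added limit of 1.5 on the log2 scale, which 0.146% of all genes met. The DESeq2 alternative called 3 of the 37 members to which it gave an adjusted p, adding Psmc6 (adjusted p = 0.0316) and Psmd3 (adjusted p = 0.0475), where it called 8.93% of all genes with one. The groups did not overlap for 14 genes that were higher and 12 that were lower, of 41, against 49.6% of all genes in either direction. The median log2 fold change of the 41 was -0.05, beside -0.001 over all genes, with 17 positive and 24 negative values.

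Psmc6 encodes an ATPase of the base, and it had the widest spread of group means in its class. It measured 64.1 and 73.2 CPM in SKF, 97.2 and 99.0 CPM in SKF+Aβ, 93.8 and 92.3 CPM in SKF+Aβ+CSP, 99.3 and 94.4 CPM in SKF+Aβ+CSP-TTK21, and 80.5 and 103 CPM in CSP-TTK21 alone. The SKF libraries were below all 8 others, with a log2 fold change of 0.51 (SE 0.14) for SKF+Aβ that did not pass in edgeR (adjusted p = 0.0715). On GRCr8 Psmc6 overlaps Styx and Rps10l6, and the use of strand in the counting is not given in the sources used here, so its reads could be shared with them. Its fellow ATPases Psmc1 to Psmc5 had negative values in the same comparison, from -0.27 for Psmc5 to -0.02 for Psmc2.

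Psmd3 belongs to the lid and had a value of the opposite sign to Psmc6, again passing in DESeq2 and not in edgeR. It measured 109.9 and 95.2 CPM in SKF, 74.7 and 75.9 CPM in SKF+Aβ, 82.3 and 75.8 CPM in SKF+Aβ+CSP, 74.8 and 80.6 CPM in SKF+Aβ+CSP-TTK21, and 89.6 and 90.8 CPM in CSP-TTK21 alone. Both SKF libraries lay above the other 8. The log2 fold change of SKF+Aβ against SKF was -0.45 (SE 0.13, adjusted p = 0.0773, edgeR).

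The 3 catalytic subunits of the core are Psmb6, Psmb7 and Psmb5, which carry the caspase-like, trypsin-like and chymotrypsin-like sites. Psmb6 measured 48.0 and 49.5 CPM in SKF, 29.5 and 38.5 CPM in SKF+Aβ, 33.8 and 34.0 CPM in SKF+Aβ+CSP, 38.1 and 42.8 CPM in SKF+Aβ+CSP-TTK21, and 37.1 and 47.2 CPM in CSP-TTK21 alone. It was highest in SKF, with a log2 fold change of -0.52 (SE 0.17, adjusted p = 0.101) for SKF+Aβ in edgeR that did not pass. Psmb5 measured 40.2 and 47.5 CPM in SKF, 35.5 and 40.2 CPM in SKF+Aβ, 38.3 and 30.6 CPM in SKF+Aβ+CSP, 40.0 and 43.9 CPM in SKF+Aβ+CSP-TTK21, and 39.0 and 50.0 CPM in CSP-TTK21 alone. Its libraries in SKF and SKF+Aβ met at 40.2 CPM, and both SKF+Aβ+CSP libraries were below every library of SKF, CSP-TTK21 alone and SKF+Aβ+CSP-TTK21.

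Psmb7 was the steadiest of the catalytic genes. It measured 90.0 and 86.1 CPM in SKF, 83.8 and 86.1 CPM in SKF+Aβ, 89.9 and 84.4 CPM in SKF+Aβ+CSP, 90.3 and 98.9 CPM in SKF+Aβ+CSP-TTK21, and 81.9 and 95.3 CPM in CSP-TTK21 alone. Its log2 fold change of SKF+Aβ against SKF was -0.05 (SE 0.13, adjusted p = 0.845, edgeR). The log2 fold change of Psmb5 in that comparison was -0.21, and none of the 3 catalytic genes passed. Their immunoproteasome counterparts were scarce, with 2 to 8 counts of Psmb8, 6 to 16 of Psmb9 and 53 to 104 of Psmb10 per library.

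**Figure D2:**
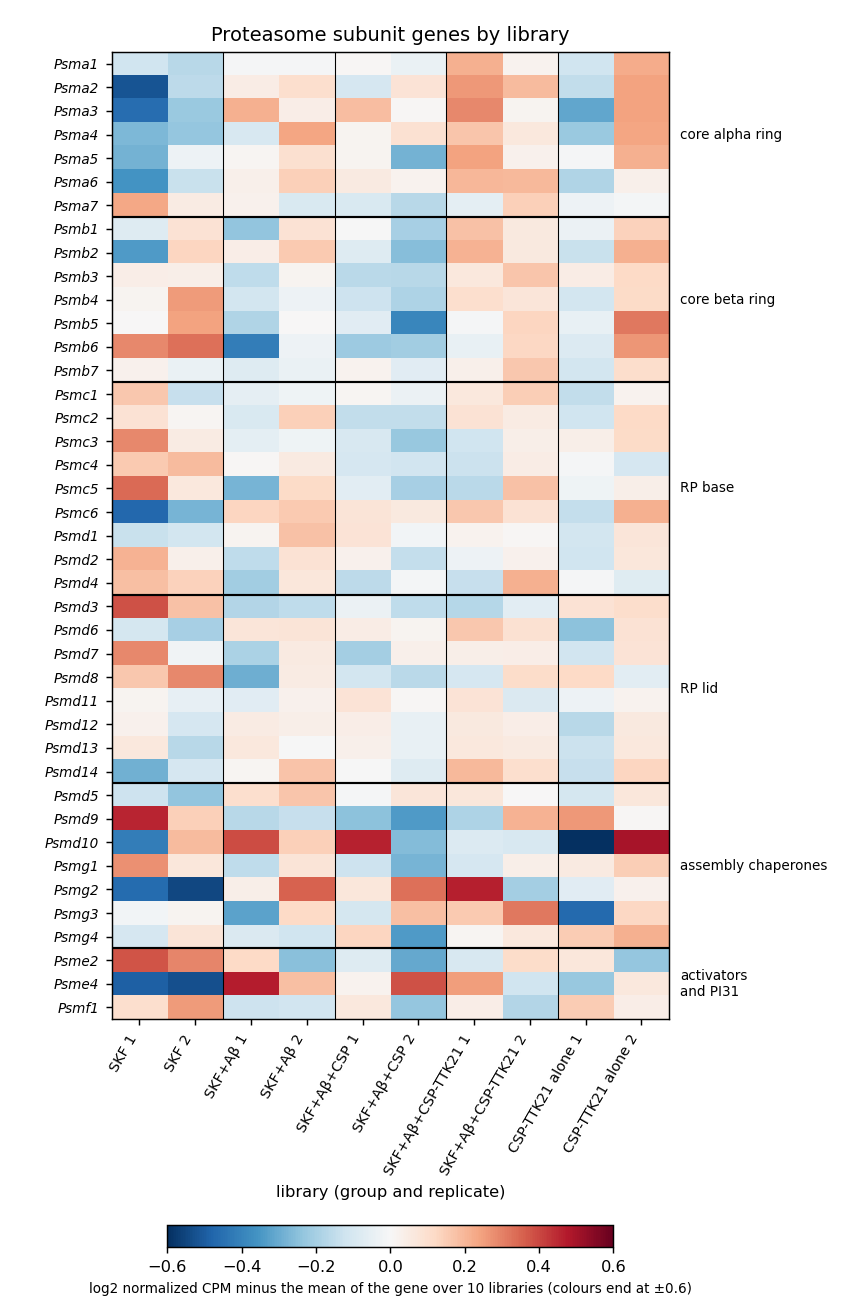
Each row is 1 of the 41 tested genes, ordered by role, and each column is 1 of the 10 libraries. Colour gives log2 normalized CPM minus the mean of the gene over the 10 libraries, with colours ending at 0.6 on either side. RP is the regulatory particle. Most alpha ring rows are blue in both SKF columns, and the Psme4 and Psmg2 rows are dark blue there.

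In the alpha ring, 6 of the 7 tested genes had positive log2 fold changes for SKF+Aβ against SKF, between 0.14 for Psma1 and 0.46 for Psma3, and Psma7 had -0.17. None passed the test. Psma2 had the widest spread of the ring, at 39.1 and 50.2 CPM in SKF, 57.6 and 59.9 CPM in SKF+Aβ, 52.2 and 59.2 CPM in SKF+Aβ+CSP, 67.1 and 63.9 CPM in SKF+Aβ+CSP-TTK21, and 50.5 and 66.2 CPM in CSP-TTK21 alone. Its SKF libraries were the 2 lowest of the 10. Beta ring genes had negative values in 6 of 7, from -0.52 for Psmb6 to -0.05 for Psmb7, and 0.19 for Psmb2.

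The alpha ring and the beta ring were then set against each other within each library, a comparison chosen after the values were seen. On the log2 scale, with each gene taken relative to its mean over the 10 libraries, the alpha ring mean less the beta ring mean was -0.246 and -0.276 in SKF and -0.078 and -0.013 in CSP-TTK21 alone. Among the libraries with Aβ it was 0.193 and 0.050 without an addition, 0.102 and 0.169 with CSP, and 0.113 and -0.016 with CSP-TTK21. Both SKF libraries were below the other 8, and the pooled SD within groups was 0.068. Against SKF, the difference of the ring medians was 0.24 for CSP-TTK21 alone, 0.43 for SKF+Aβ, 0.48 where CSP was added to it and 0.29 where CSP-TTK21 was added. All 4 values rest on the same SKF libraries, and with 1 library left out they ranged from 0.13 to 0.49, with 0.37 for SKF+Aβ without SKF replicate 1. No p-value was computed for this difference. The mitochondrial share of counts was lowest in the same pair of libraries, and a link between them was not tested.

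The core as a whole and the regulatory particle differed less. The core median less the regulatory particle median, as log2 fold changes against SKF, was 0.17 for CSP-TTK21 alone, 0.10 for SKF+Aβ, 0.13 with CSP added to it and 0.16 with CSP-TTK21 added. Library by library, the mean of the core less that of the regulatory particle was -0.211 and 0.024 in SKF and -0.032 and 0.119 in CSP-TTK21 alone. With Aβ it was 0.007 and -0.011 without an addition, -0.009 and -0.051 with CSP, and 0.126 and 0.038 with CSP-TTK21. SKF replicate 1 was below all others and SKF replicate 2 lay within their range, both SKF+Aβ+CSP-TTK21 libraries were above the other 6 that had SKF, and the pooled SD within groups was 0.094. Without SKF replicate 1 the SKF+Aβ value turned to -0.04 and the SKF+Aβ+CSP value to -0.07, so that library decided the sign.

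**Figure D3:**
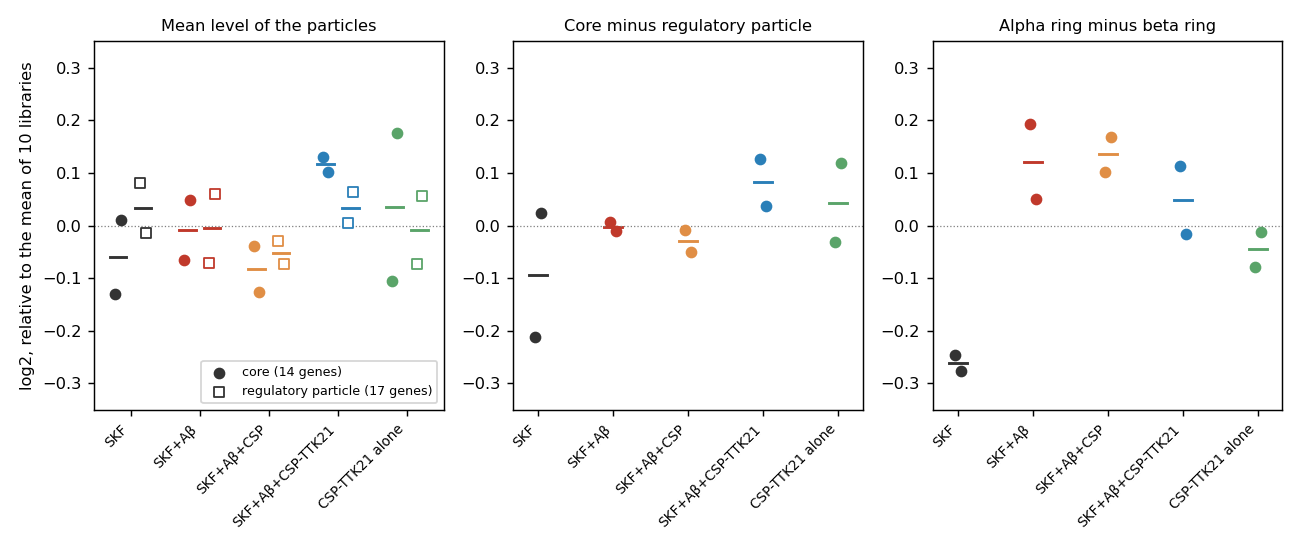
Mean log2 level relative to the 10 libraries of the core (14 genes, filled circles) and the regulatory particle (17 genes, open squares) at left, their difference in the middle, and the alpha ring less the beta ring at right. Points are libraries and lines are group means. In the right panel the SKF libraries, at -0.246 and -0.276, lie apart from the others, while in the middle panel the SKF+Aβ+CSP-TTK21 libraries, at 0.126 and 0.038, lie above those of the other 3 groups with SKF and overlap CSP-TTK21 alone.

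The assembly chaperones included the pair Psmg1 and Psmg2, which start the alpha ring, the pair Psmg3 and Psmg4, which act on it next, and Psmd5, Psmd9 and Psmd10, which assist the base. Psmg2 spread widest, at 5.25 and 4.94 CPM in SKF, 7.40 and 9.24 CPM in SKF+Aβ, 7.56 and 9.09 CPM in SKF+Aβ+CSP, 9.97 and 6.27 CPM in SKF+Aβ+CSP-TTK21, and 6.89 and 7.35 CPM in CSP-TTK21 alone. Its SKF libraries were the lowest, but the gene had only 37 to 78 counts per library. The log2 fold change for SKF+Aβ was 0.70 (SE 0.29) and did not pass (adjusted p = 0.167, edgeR). Psmd9 had -0.46 (SE 0.18, adjusted p = 0.164) and Psmd5 0.31 (SE 0.14, adjusted p = 0.207) in the same edgeR test. Of the core regulators, Psme2, a PA28 subunit, had -0.39 and Psmf1, the inhibitor PI31, had -0.30, neither past the threshold.

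The remaining comparisons with SKF use the same 2 SKF libraries, and in edgeR they called none of the 41 genes. In SKF+Aβ+CSP the edgeR test called 0, with 13 at an unadjusted p under 0.05 (4 higher, 9 lower), where 0.0200% and 19.3% of all genes reached these thresholds, and DESeq2 called 1, Psme4, of 37, and 4.62% of all genes. Psme4 had a log2 fold change of 0.73 (SE 0.17, adjusted p = 0.0808, edgeR) and Psmd9 had -0.60 (SE 0.18, adjusted p = 0.123). Groups were apart for 12 genes that were higher and 17 that were lower, against 52.4% of all genes in either direction, and 8 of the 17 lower ones belonged to the regulatory particle. The medians were -0.04 for the core and -0.18 for the regulatory particle, with -0.20 for the base and 0.04 for the lid. The summed level of 6 microglia markers (none at 0) was also lower, at 62.9 to 78.2 CPM against 79.6 to 147 CPM in SKF, and its part was not tested.

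In SKF+Aβ+CSP-TTK21 against SKF the edgeR test again called 0 of 41, with 9 at an unadjusted p under 0.05 (8 higher, 1 lower), beside 0.00665% and 19.6% of all genes, and DESeq2 called 1, Psme4, of 36, and 4.58% of all genes. Groups were apart for 17 genes that were higher and 9 that were lower, against 50.5% of all genes. The lowest p was that of Psmc6, with 0.50 (SE 0.14, adjusted p = 0.124, edgeR). In the alpha ring, Psma2 had 0.55 (SE 0.17), Psma3 0.50 (SE 0.18), Psma6 0.44 (SE 0.14) and Psma4 0.37 (SE 0.17), none past the adjusted threshold. Core genes had a median of 0.17, and the regulatory particle one of 0.01, which with library totals became 0.10 and -0.06. The groups were also apart in the summed markers of neurons (5 genes, 6446 to 6914 CPM in SKF and 7160.5 to 7842 CPM here), inhibitory neurons (5 genes, 382 to 384 and 482 to 486 CPM) and dentate granule cells (3 genes, 197 to 239 and 243 to 278 CPM), none at 0. Endothelial and mural markers (5 of 6 matched, 1 at 0) were lower, at 88.8 to 135 CPM in SKF and 66.0 to 68.0 CPM here, and the part of these cells was not tested.

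CSP-TTK21 alone, against SKF, gave 0 called genes in edgeR, and 3 of 41 at an unadjusted p under 0.05, all higher, where 0.00% and 7.78% of all genes reached these thresholds. DESeq2 called 0 of 41, and 0.0200% of all genes. Groups were apart for 10 genes that were higher and 8 that were lower, against 36.1% of all genes. The 3 genes were Psmc6 (0.42, SE 0.14), Psma2 (0.39, SE 0.17) and Psme4 (0.44, SE 0.17), each with an adjusted p of 0.633 in edgeR. Summed markers were also apart from SKF for oligodendrocytes (14138 to 14419.7 CPM here and 15372 to 22865 CPM in SKF), inhibitory neurons (406 to 448 and 382 to 384 CPM) and choroid plexus (4.92 to 5.08 and 2.35 to 3.74 CPM), and their part was not tested. The 2 libraries of this group differed in the mean level of the list more than those of any other group: the mean of all 41 genes, relative to the 10 libraries, was -0.091 in one and 0.106 in the other (SD 0.140), where the SD of the other groups was 0.003 to 0.068.

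**Figure D4:**
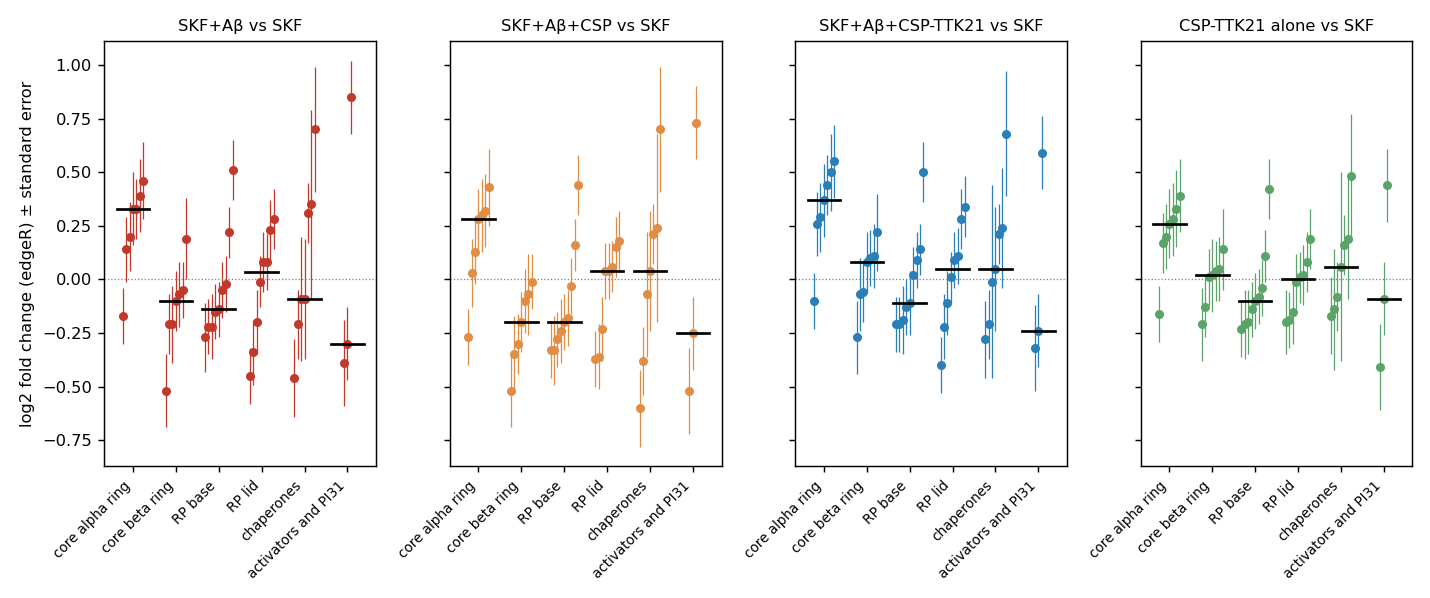
Log2 fold change (edgeR) against SKF of each tested gene, grouped by role on the horizontal axis, in the 4 comparisons that share the SKF libraries. Points are genes with their standard error, and black lines are class medians. The alpha ring median is 0.33, 0.28, 0.37 and 0.26 in the 4 panels, and the beta ring median is -0.10, -0.20, 0.08 and 0.02; RP is the regulatory particle, and the single point above 0.4 among the activators is Psme4.

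Adding the carrier CSP to SKF+Aβ was followed by no called gene of the list in edgeR, and by 0 of 41 at an unadjusted p under 0.05, where 0.00% and 2.18% of all genes reached these thresholds. DESeq2 called 0 of 41, and 0.00665% of all genes. None of the 41 was higher with the groups apart, and 11 were lower, against 12.9% of all genes in that direction and 27.2% in either. The lowest p was that of Psmb2, a beta ring subunit without a catalytic site, which measured 32.8 and 35.5 CPM in SKF+Aβ and 30.2 and 26.7 CPM in SKF+Aβ+CSP. Its log2 fold change was -0.26 (SE 0.19, adjusted p = 1.00, edgeR). In the other groups the lower and higher library of Psmb2 measured 25.2 and 34.8 CPM in SKF, 33.2 and 36.8 CPM in SKF+Aβ+CSP-TTK21, and 29.1 and 37.0 CPM in CSP-TTK21 alone. Oligodendrocyte markers were higher with CSP, at 16459 to 16841 CPM against 10408 to 14796 CPM, as were precursor markers, at 187 to 203 CPM against 171 to 179 CPM, and choroid plexus markers were lower, at 3.43 to 3.66 CPM against 4.32 to 4.33 CPM, and their part was not tested.

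CSP-TTK21 added to SKF+Aβ likewise gave 0 called genes in edgeR and DESeq2 and 0 at an unadjusted p under 0.05, beside 0.00% and 6.59% of all genes. Groups were apart for 10 genes that were higher and 2 that were lower, against 35.9% of all genes. All 14 core genes had positive values, from 0.03 for Psma3 to 0.25 for Psmb6, with a median of 0.14, and the regulatory particle had a median of 0.03. With library totals in place of TMM factors, 10 of the 14 core genes were positive with a median of 0.06, and the regulatory particle median turned to -0.04. Cell type markers also differed in level in this comparison, with a median log2 fold change of 0.51 for oligodendrocytes (4 of 5 at an unadjusted edgeR p under 0.05, all higher), 0.49 for microglia, 0.31 for astrocytes, 0.40 for oligodendrocyte precursors and -0.54 for endothelial and mural cells, none of whose genes passed the adjusted threshold. The summed levels were apart for astrocytes (5 genes, 2639 to 3103 CPM in SKF+Aβ and 3342 to 3469.7 CPM with CSP-TTK21), precursors (171 to 179 and 237 to 246 CPM) and endothelial and mural cells (85.1 to 111 and 66.0 to 68.0 CPM). They overlapped for oligodendrocytes (10408 to 14796 and 14141 to 23695 CPM) and microglia (63.8 to 97.9 and 90.6 to 143 CPM), and the part of these cells in the core values was not tested. Psme4 had the lowest p, at -0.26 (SE 0.17, adjusted p = 0.777, edgeR), and its SKF+Aβ and SKF+Aβ+CSP-TTK21 libraries overlapped.

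CSP and CSP-TTK21 were both prepared at 0.36 ug/ml and given on SKF+Aβ, and CSP-TTK21 carries TTK21 on the sphere. Between them the edgeR test called 0 of 41 genes and 0 reached an unadjusted p under 0.05, where 0.00% and 8.78% of all genes did. DESeq2 called 0 of 41, and 0.177% of all genes to which it gave an adjusted p. With CSP-TTK21, 22 genes were higher with the groups apart and none lower, beside 23.5% of all genes apart and higher, and 46.3% apart in either direction. These included 12 of the 14 core genes, with 7 of 7 in the beta ring, and 8 of the 17 regulatory particle genes. Core genes had a median log2 difference of 0.23 with all 14 positive, the regulatory particle had a median of 0.09, and all tested genes had one of 0.009. With library totals in place of TMM factors these became 0.16 with 12 of 14 positive, 0.03, and -0.060 over all genes. The summed markers were also apart and higher with CSP-TTK21 for astrocytes (2666 to 2748 CPM with CSP and 3342 to 3469.7 CPM with CSP-TTK21), microglia (62.9 to 78.2 and 90.6 to 143 CPM), neurons (6819 to 6946 and 7160.5 to 7842 CPM), inhibitory neurons (378 to 423 and 482 to 486 CPM), dentate granule cells (231 to 242 and 243 to 278 CPM) and oligodendrocyte precursors (187 to 203 and 237 to 246 CPM). They were lower for endothelial and mural cells (109 to 138 and 66.0 to 68.0 CPM), and the part of these cells in the difference was not tested.

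The gene with the lowest p in that comparison was Psmb3, a structural subunit of the beta ring, which measured 39.2 and 39.1 CPM with CSP and 45.8 and 49.2 CPM with CSP-TTK21. It measured 45.1 and 44.9 CPM in SKF, 39.5 and 44.4 CPM in SKF+Aβ, and 45.2 and 47.6 CPM in CSP-TTK21 alone. The log2 difference between the compounds was 0.28 (95% interval -0.02 to 0.57, adjusted p = 0.570, edgeR). For the catalytic genes the differences were 0.28 for Psmb5 (-0.10 to 0.66), 0.25 for Psmb6 (-0.11 to 0.62) and 0.12 for Psmb7 (-0.16 to 0.40). For Psme4 it was -0.14 (-0.50 to 0.23). Each of these intervals includes 0.

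Set against CSP-TTK21 alone, from which it differs by SKF and Aβ together, SKF+Aβ+CSP-TTK21 had 0 called genes in edgeR and DESeq2 and 0 at an unadjusted p under 0.05, beside 0.00% and 4.18% of all genes. Groups were apart for 4 genes that were higher and 4 that were lower, of 41, against 33.6% of all genes. Psma6 of the alpha ring had the lowest p, at 73.1 and 72.9 CPM with SKF+Aβ+CSP-TTK21 and 56.1 and 65.1 CPM with CSP-TTK21 alone. It measured 49.6 and 58.1 CPM in SKF, 65.1 and 70.2 CPM in SKF+Aβ, and 66.0 and 64.5 CPM in SKF+Aβ+CSP. The log2 difference was 0.27 (SE 0.14, adjusted p = 0.963, edgeR). Summed markers were higher with SKF+Aβ+CSP-TTK21 for neurons (7160.5 to 7842 CPM against 6765 to 7038 CPM), inhibitory neurons (482 to 486 against 406 to 448 CPM) and dentate granule cells (243 to 278 against 214 to 217 CPM) and lower for endothelial and mural cells (66.0 to 68.0 against 87.2 to 101 CPM), and their part was not tested.

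One edgeR test over all 5 groups called 0 of the 41 genes, with 5 at an unadjusted p under 0.05, where 0.00665% and 14.3% of all genes reached these thresholds, and DESeq2 called 1 of 36, Psme4 (adjusted p = 0.00526), and 4.89% of all genes. The 5 were Psme4 (adjusted p = 0.207, edgeR), Psmd3, Psmc6, Psmb6 and Psmd9. By group mean, Psme4 was lowest in SKF, at 117 ± 2.22 CPM (SD, n = 2), followed by CSP-TTK21 alone at 159 ± 23.0 CPM. The groups with Aβ came next, at 176 ± 31.9 CPM with CSP-TTK21, 194 ± 33.8 CPM with CSP and 211 ± 29.7 CPM without an addition. Neighbours in this order did not differ beyond their spread, apart from SKF and CSP-TTK21 alone, whose libraries did not overlap.

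Other genes of the ubiquitin-proteasome pathway were taken from a list of 38, of which 37 matched a row and 35 were tested. In SKF+Aβ against SKF, 2 of the 35 rose and 0 fell at an adjusted p under 0.05 in edgeR, where 2.08% of all genes were called. In each of the other 7 comparisons 0 passed in the same edgeR test. Usp14, the deubiquitinase that trims chains on the regulatory particle, measured 98.0 and 95.2 CPM in SKF and 177 and 165 CPM in SKF+Aβ, with the other 6 libraries at 113 to 177 CPM. It rose by a log2 fold change of 0.82 (SE 0.15, adjusted p = 0.0326, edgeR). Ube3a, the ubiquitin ligase of Angelman syndrome that also associates with the proteasome, measured 142 and 149 CPM in SKF and 238 and 204 CPM in SKF+Aβ, with the other 6 libraries at 179 to 221 CPM. It rose by 0.61 (SE 0.13, adjusted p = 0.0402, edgeR). Against SKF, Usp14 had 0.62 and Ube3a 0.57 in SKF+Aβ+CSP, and 0.70 and 0.55 in SKF+Aβ+CSP-TTK21. These values did not pass in that edgeR test, but each passed at 2 of 18 alternative settings. For SKF+Aβ against SKF, the Usp14 call was held at 11 of 18 alternative settings and the Ube3a call at 10 of 18, and they were lost at the rest. The log2 fold change ranged from 0.76 to 0.86 for Usp14 and from 0.48 to 0.70 for Ube3a.

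The rest of the pathway list gave values that did not pass in this edgeR test of SKF+Aβ against SKF. Among the genes of widest spread in their role were Shfm1 of the lid at -0.38, the immunoproteasome subunit Psmb9 at -0.90 from 6 to 16 counts, and the proteasome-binding Zfand5 at 0.65 (adjusted p = 0.0578, edgeR). Uchl5, the other deubiquitinase of the particle, had 0.61 (adjusted p = 0.0958, edgeR), and Uba6, a ubiquitin-activating enzyme, had 0.78 (adjusted p = 0.0619, edgeR). Zfand5 and Uba6 each passed at 3 of 18 alternative settings. The p97 cofactor Faf1 had 0.43. Nfe2l1, the factor known to drive proteasome genes when the proteasome is inhibited, measured 213 and 188 CPM in SKF and 129 and 172 CPM in SKF+Aβ, a log2 fold change of -0.41 (SE 0.15, adjusted p = 0.136, edgeR). Pomp, the chaperone of core maturation, had 0 to 2 counts per library and was not tested, with the same limit as for Psme1.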

How the data were processed

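The authors deposited 1 table of whole-number counts per gene for 10 libraries, 2 in each of 5 groups, and groups and replicate numbers were read from the sample titles. According to the study's methods, libraries were made with a stranded kit with ribosomal RNA removal, and reads were trimmed, cleared of duplicates and aligned with TopHat2, for which both a rat (Rnor_6.0) and a mouse (mm10) genome are named. The submitters' processing notes list STAR, RSEM, HISAT2 and Salmon and the build GRCh38 with no role, and the counting program, its annotation and its use of strand are not given in the sources used here.

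Counts were tested with edgeR 4.0.16 in R 4.3.3 (quasi-likelihood test, TMM factors, filterByExpr by group) in one fit of all 10 libraries with a mean per group, over 8 comparisons and one test of all 5 groups. p-values were adjusted by Benjamini-Hochberg over 15032 genes, and a gene was called at an adjusted p under 0.05. The common biological coefficient of variation was 0.136. CPM in the text are deposited counts scaled by library size and TMM factor, with SD over 2 libraries, and 95% intervals use the standard error and the degrees of freedom of the fit. The study's limit of 1.5 on the log2 scale, DESeq2 1.42.0, limma 3.58.1, RLE factors, library totals, other filters, a fit of the compared libraries alone, a replicate block and the omission of each library were alternatives. The edgeR p-values rest on the spread between the 2 libraries of a group, estimated over all 5 groups, so they also depend on groups outside a comparison. A design of 2 against 2 leaves no room for an exact permutation test at 0.05.

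Tested on simulated data for SKF+Aβ against SKF (14811 genes), the fit recovered 1 of 50 genes changed by 0.5 on the log2 scale, 35 of 50 changed by 1, 50 of 50 by 1.5 and 49 of 50 by 2, and 14 of the 149 genes called had no change. The changed genes and their number were set in advance and drawn from genes above a set mean count. These rates may therefore not hold for the scarcer genes of the list. Replicates of a group differed by more than sampling noise, with chi-square per degree of freedom of 4.97 to 12.6.

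The values of every library are given for the catalytic subunits, for called genes or the gene of lowest p in each comparison, and for the gene of widest spread in each class. Pathway genes are named where called or widest in their role, and some of these are not reported here. The genes, classes and lists were chosen with earlier results of these data known. Class medians are descriptions without a test. Promoters came from RefSeq on GRCr8.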

Additional observations from a re-analysis of the deposited data

How the results depend on the processing

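The count of called genes in SKF+Aβ against SKF, 1 in the analysis above, was 3 with DESeq2 (Psme4, Psmc6 and Psmd3; 8.93% of all genes called), 0 where only the compared libraries were fitted (0.0833%), 0 with the added limit of 1.5 on the log2 scale, and 0 to 1 with 1 library left out (0.00644% to 1.92% of all genes). In SKF+Aβ+CSP against SKF, in SKF+Aβ+CSP-TTK21 against SKF and over the 5 groups it was 0, and 1, Psme4, both with DESeq2 (4.62%, 4.58% and 4.89% of all genes) and without a filter on low counts (2.99%, 3.57% and 5.55%). At an unadjusted p under 0.05 the counts were 11 for SKF+Aβ, 13 where it had CSP, 9 where it had CSP-TTK21 and 3 for CSP-TTK21 alone, all against SKF, and 5 over the 5 groups. The reduced fits also held fewer libraries, and the cause of these differences was not tested.

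With 1 library left out, the core median less the regulatory particle median against SKF ran from -0.04 to 0.19 for SKF+Aβ, from -0.07 to 0.27 with CSP added, from 0.05 to 0.28 with CSP-TTK21 added and from 0.01 to 0.30 for CSP-TTK21 alone, each lowest without SKF replicate 1 and highest without SKF replicate 2.

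Same-numbered libraries deviated together with correlations of -0.0691 to 0.237 over 10 pairs of groups, so the number was not taken to pair them. With the replicate block Psme4 had 0.85 (adjusted p = 0.0318, edgeR) and no count of called members changed, while the share of all genes called went from 2.08% to 2.83% for SKF+Aβ, from 0.0200% to 0.0466% with CSP added and from 0.00665% to 0.718% with CSP-TTK21 added, all against SKF, and from 0.00% to 0.0931% between CSP-TTK21 and CSP. Library totals in place of TMM factors put the median of all genes in the comparisons of SKF+Aβ+CSP-TTK21 between -0.081 and -0.060, which lowered all class medians there and turned the regulatory particle median against SKF and against SKF+Aβ below 0, and both medians against CSP-TTK21 alone, while the core less the regulatory particle kept its sign in all 8 comparisons. Psma8, Psmb11, Psme1 and Pomp had counts at or near the floor at depths of 6753742 to 8473407 counts, and the annotation behind the counts is not given in the sources used here.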
